A study of Mus musculus with 2 samples.

Results

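The ribbon synapse and vesicle release machinery of the mouse retina was followed through 31 genes, taken by symbol from a single-cell table of 17087 genes, and all 31 were found in it. They were described in rod-like, cone-like, rod bipolar-like, cone bipolar-like and amacrine-like cells and between a control and a diabetic library. Both libraries came from retinas of male C57BL/6 mice. The diabetic mice had been injected into the peritoneum with streptozotocin (STZ), a toxin for the insulin-producing cells of the pancreas, at 55 mg/kg when 3 to 5 weeks old. Glucose above 300 mg/dL was the criterion for diabetes, and high glucose then lasted 25 weeks. The control animals are labelled untreated, no vehicle injection is mentioned and their age is not given, so any age difference between the libraries cannot be told apart from the treatment. Cells of 3 retinas were pooled into each library, and there was 1 library per group, so no difference between the groups could be tested and single animals cannot be told apart. The question is where in the retina each release gene is transcribed, and how its level compares between the STZ and the control library.

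Photoreceptors and bipolar cells release glutamate in a graded and sustained way from ribbon synapses. The ribbon is a plate built mainly from RIBEYE, a product of Ctbp2, that holds vesicles close to L-type calcium channels at the active zone. Bassoon, piccolo, RIM and ELKS proteins form the scaffold around it, SNARE proteins fuse the vesicle, complexins hold or release the SNARE complex, and NSF with its SNAP adaptors takes the complex apart afterwards. Amacrine cells mostly use conventional synapses without a ribbon and release GABA or glycine. Adhesion proteins such as ELFN1, the LRIT proteins, pikachurin and dystroglycan join the photoreceptor terminal to the dendrites of bipolar cells.

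The table held 7169 control cells with a median of 3800 unique molecular identifiers (UMIs, counted RNA molecules) and 12393 STZ cells with a median of 2062. After filtering, 5294 and 8232 cells were kept and clustered without the 31 genes. There were 630 control and 992 STZ cells in the rod-like class, 777 and 894 in the cone-like class and 911 and 811 in the rod bipolar-like class. The cone bipolar-like class held 987 and 1276, and the amacrine-like class 55 and 217. The markers fitted these names: Gnat1, the rod transducin subunit, stood at 6760 and 5610 CPM (UMIs of the gene scaled to 1000000 UMIs of the class) in rod-like cells and at 248 and 267 in cone-like cells. Slc32a1, the vesicular GABA and glycine transporter, stood at 634 and 538 CPM in amacrine-like cells and at no more than 1.40 in the other 4 classes. The barcodes of 21 cells occurred in both libraries. Clusters 10, 12, 13 and 14 stayed unnamed. Clusters 13 and 14 held the bipolar markers Grm6 and Otx2 but fewer than 3 leading markers of either bipolar class, and cluster 12, with 19 control and 1620 STZ cells, had a median of 682 UMIs in STZ. In pairs of values below, the control library comes first and the STZ library second.

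RNA of these genes was also counted in cells that have no ribbon. Free RNA can enter a droplet, and such cells can also transcribe some of these genes. How much of their counts came from either was not tested. Summed over the 31 genes, the level was 7798 and 7697 CPM in rod-like cells, 9500 and 9859 in cone-like cells, 11120 and 10060 in rod bipolar-like cells, 11370 and 10750 in the cone bipolar-like class and 9800 and 11310 in amacrine-like cells. It was 812 and 1025 CPM in Müller glia-like cells and 1091 and 2225 CPM in endothelial-like cells. The STZ endothelial-like cells were shallow, with a median of 958 UMIs against 3175 in control, and their level of Gnat1 was 486 CPM against 218. Summed markers of other cells were also higher in them in STZ: 6246 CPM against 2.91 for red blood cells, 5886 against 1950 for Müller glia and 2463 against 518 for cones. Levels in Müller glia-like cells, and for some genes in endothelial-like cells, are therefore given beside several of the results they touch. Intervals below are at 95% and cover counting error only, since libraries were not replicated and the UMIs of a cell are not independent draws of animals.

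Each gene was assigned to the class with its highest mean CPM over both libraries. That was the rod-like class for 4 genes, the cone-like for 10, the rod bipolar-like for 4, the cone bipolar-like for 6 and the amacrine-like for 7. The same class was highest in both libraries for 23 of the 31. The map of levels by class shows these blocks by role.

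**Figure D1:**
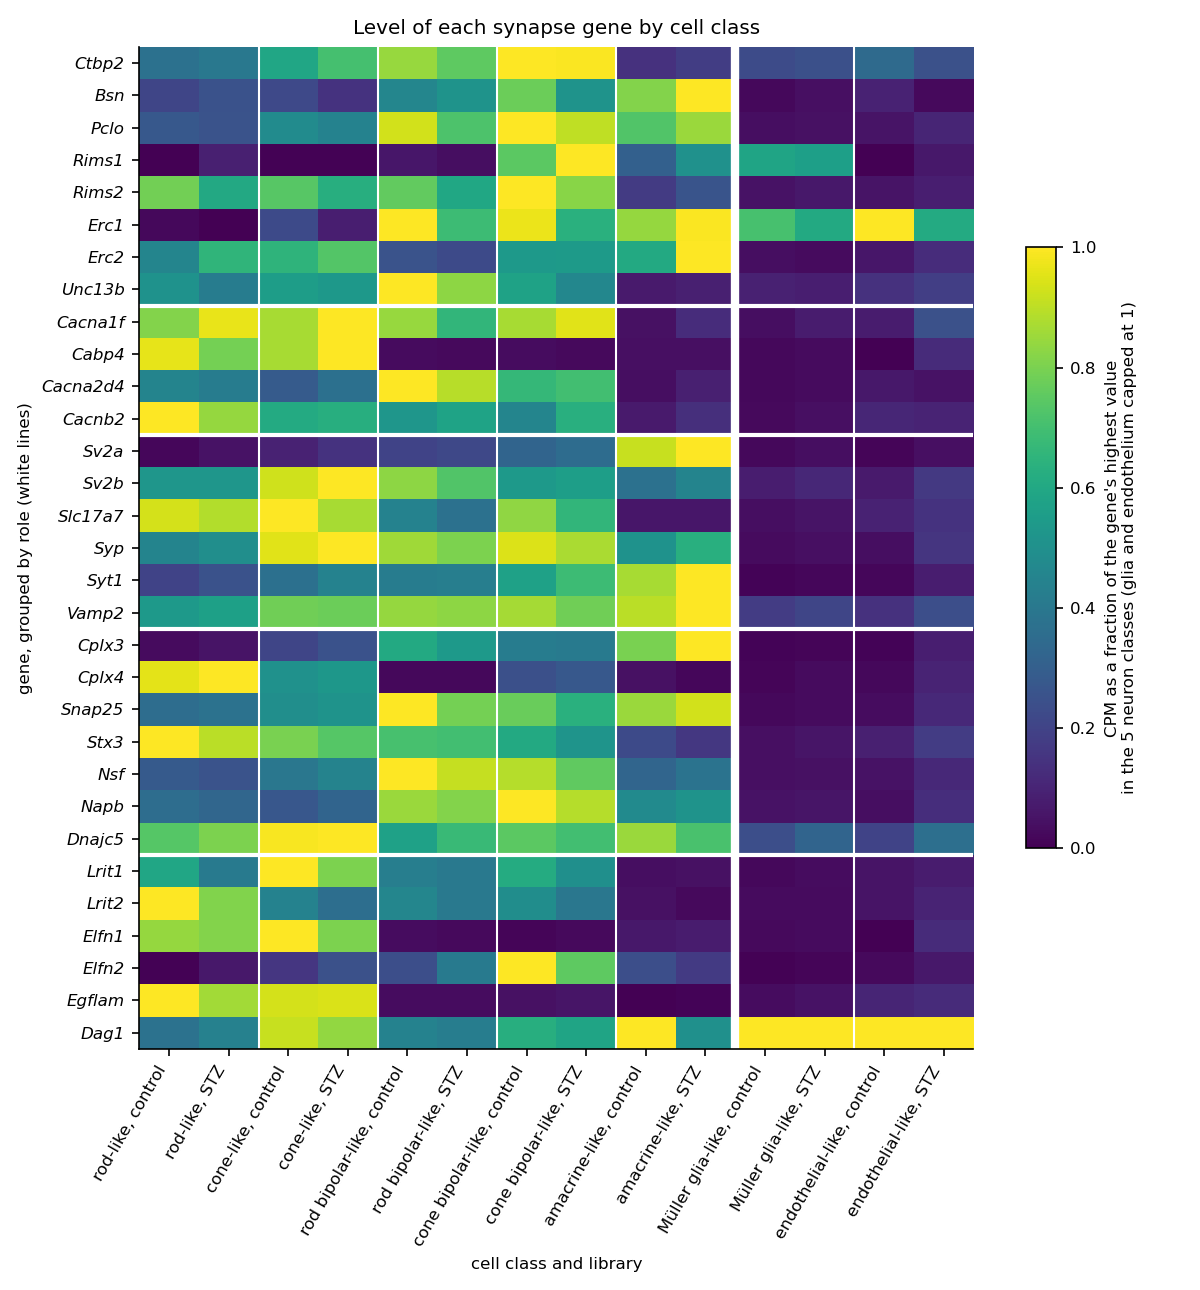
CPM of each of the 31 genes (vertical axis, grouped by role) in the 5 neuron classes, Müller glia-like and endothelial-like cells of each library (horizontal axis), as a fraction of the gene's highest value among the 5 neuron classes. Cabp4, Elfn1 and Egflam are bright in the rod-like and cone-like columns, and Sv2a, Syt1 and Cplx3 are brightest in amacrine-like cells.

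Differences between classes were counted where a gene was at least 1.5-fold apart in the same direction in both libraries, among genes with a pooled level of at least 10 CPM and at least 20 UMIs. Cone-like cells exceeded rod-like cells for 10 of 29 measured genes and were below them for 2. Of all measured genes, 19.4% were higher in cones and 27.1% differed in either direction. Rod bipolar-like cells exceeded cone bipolar-like cells for 1 of 29 genes and were below them for 6, beside 5.89% higher and 21.2% in either direction among all genes. Amacrine-like cells exceeded the sum of both bipolar classes for 4 of 29 genes and were below it for 14, beside 13.4% and 25.4%. Photoreceptor-like cells (rods and cones summed, weighted by UMIs and so mostly cones) exceeded bipolar cells for 7 of 31 genes and were below them for 10, beside 14.9% and 36.9%. The plot of class differences gives each gene in each library.

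**Figure D2:**
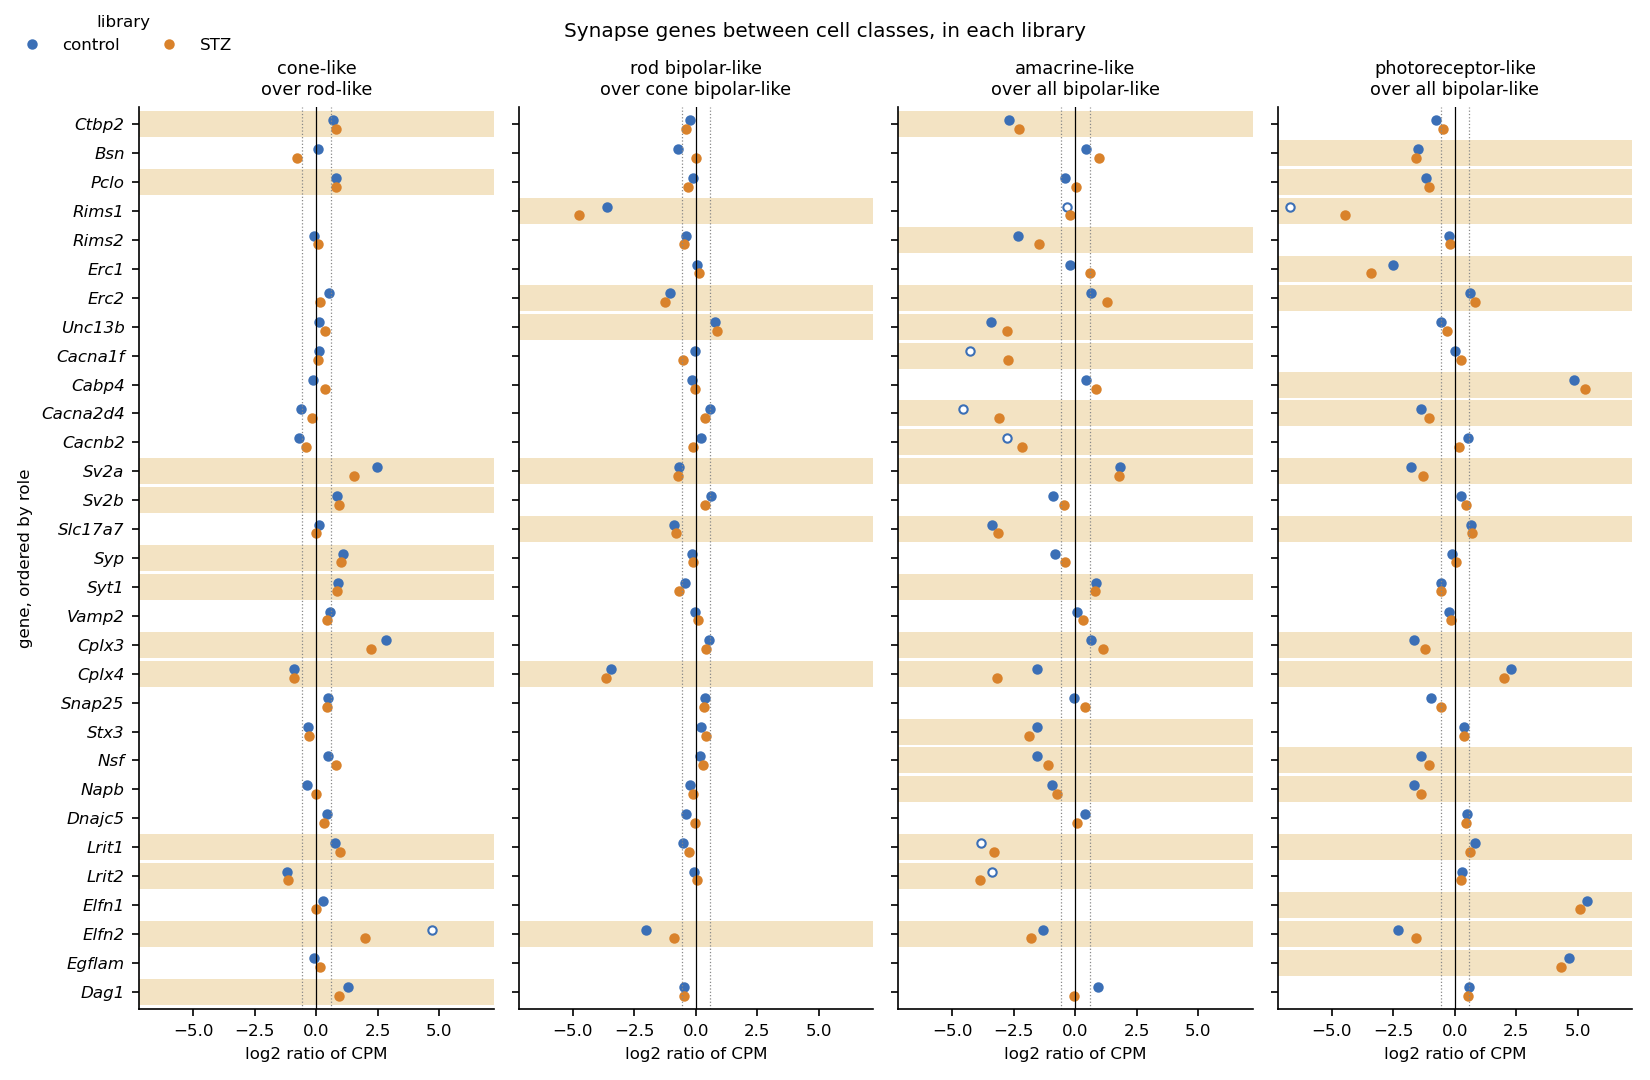
Log2 ratio of CPM between cell classes (horizontal axes) for each gene (vertical axis) in the control and STZ libraries, with dotted lines at 1.5-fold. Shaded genes are at least 1.5-fold apart in the same direction in both libraries, and open points rest on 3 or fewer UMIs in either class. Shading is densest in amacrine-like over bipolar-like cells, with 4 genes higher and 14 lower.

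Among the ribbon and active zone genes, Ctbp2 (chromosome 7, 132987563 to 133124354, mm10) had its highest level, 311 and 309.6 CPM, in the cone bipolar-like class. It stood at 263 and 234 CPM in rod bipolar-like cells, 184 and 219.9 in cone-like cells, 116 and 125 in rod-like cells and 44.6 and 56.0 in amacrine-like cells. The amacrine-like level, from 9 and 48 UMIs, was 6.42-fold and 4.95-fold below that of bipolar cells. It lay under the 70.6 and 75.4 CPM of Müller glia-like cells and the 108 and 77.2 of endothelial-like cells. Ctbp2 also encodes the transcriptional corepressor CtBP2, which many cell types use. The annotated transcripts differ at their start: Ctbp2-201 and Ctbp2-209 code for 445 and 420 amino acids and start far upstream, while Ctbp2-214 starts at 133015248 on the minus strand and codes for 988, the long form with the ribbon-specific first part. Counts taken at the 3′ end of the RNA cannot separate these transcripts.

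The window of 250 bases before the RefSeq start at this place holds 1 copy of TAATCC, the core that the photoreceptor and bipolar factors CRX and OTX2 bind, on the opposite strand, beginning 121 bases before the start. It is shown because it lies at the start that separates RIBEYE from CtBP2. The 30 bases around it are given 5′ to 3′ in the direction of the gene from RefSeq on GRCm38.p6, with the reverse complement of the core in capitals.
Ctbp2, chr7:133015351-133015380, minus strand: taaggtttcagaGGATTAataatttaggtc
TAATCC was found on either strand in 5 of the 24 genes that have at least 1 RefSeq window, namely Ctbp2, Sv2b, Syp, Lrit1 and Lrit2, and in 6.25% of all 32851 windows of that length. A gene can have several windows, the 24 genes having 33, so a share of genes and a share of windows are unlike measures. By window, TAATCC was in 1 of 6 windows of genes higher in photoreceptors than in bipolar cells. It was in 0 of 9 windows of genes that were lower and 6 of 18 of genes that were neither. The Lrit2 windows overlap and hold the same site. TGCTGA, part of the element that the rod factor NRL binds, was in 3 of the 24 genes and 16.1% of windows. GGGCGG, the SP-factor box, was in 12 and in 32.7%. Matches, of the same or of different motifs, overlapped in 1 window of these genes, and a match describes letters only.

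Bassoon and piccolo anchor the ribbon. Pclo was at 327 and 296 CPM in cone bipolar-like cells, 304 and 236 in rod bipolar-like cells, 157 and 145 in cone-like cells and 89.5 and 83.2 in rod-like cells. Bsn was at 49.5 and 60.7 CPM in amacrine-like cells, on 10 and 52 UMIs, and at 13.4 and 8.80 in cone-like cells. Both were lower in photoreceptors than in bipolar cells, Pclo 2.23-fold and 2.09-fold and Bsn 2.79-fold and 2.96-fold. Amacrine-like cells held both, with Pclo at 238 and 278 CPM.

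The paralogues of the scaffold split by class. RIM proteins tether channels and vesicles, and Rims1 was near 0 in photoreceptors, with 0 and 6 UMIs in rod-like cells and 1 and 1 in cone-like cells. Rod bipolar-like cells held 12 and 6 UMIs of it. Cone bipolar-like cells held 134 and 213, or 36.1 and 48.3 CPM, which was 12.4-fold and 26.9-fold over rod bipolar-like cells. Müller glia-like cells were at 28.1 and 27.2 CPM, above every value in photoreceptors and rod bipolar-like cells. Its paralogue Rims2 was at 483 and 397 CPM in cone bipolar-like cells and between 287 and 379.5 in both photoreceptor classes and the rod bipolar-like class, against 84.1 and 126 in amacrine-like cells.

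ELKS proteins bind RIM and bassoon. Erc1 was at 35.2 and 24.2 CPM in rod bipolar-like cells and 34.2 and 22.4 in the cone bipolar-like class, while rod-like cells held 1 and 0 UMIs and cone-like cells 33 and 12. Erc2 was at 29.7 and 49.0 CPM in amacrine-like cells, 22.4 and 32.1 in rods, 31.8 and 35.9 in cones, 26.4 and 26.7 in the cone bipolar-like class and 12.6 and 11.1 in rod bipolar-like cells. It was 1.54-fold and 1.75-fold higher in photoreceptors than in both bipolar classes summed, of which the rod bipolar-like class was the low one. Erc2 was also 2.09-fold and 2.42-fold lower in rod bipolar-like than in cone bipolar-like cells. Erc1 is not specific to neurons here, with 24.9 and 21.5 CPM in Müller glia-like cells and 66.9 and 21.6 in endothelial-like cells. Unc13b, which primes vesicles for fusion, was highest in rod bipolar-like cells, at 403 and 334 CPM against 233 and 187 in cone bipolar-like cells. It was the single gene of the 31 that was at least 1.5-fold higher in rod bipolar-like than in cone bipolar-like cells, and in amacrine-like cells it stood at 29.7 and 36.2 CPM.

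The presynaptic L-type calcium channel of ribbon synapses consists of the pore subunit Cacna1f with the subunits Cacna2d4 and Cacnb2, and Cabp4 is the calcium-binding protein that tunes it. Cacna1f was even across the ribbon cells, between 73.5 and 112 CPM in the photoreceptor and bipolar classes, and amacrine-like cells held 1 and 12 UMIs. Cabp4 was almost confined to photoreceptors among the neurons. It stood at 450.3 and 370.4 CPM in rod-like and 406 and 468 in cone-like cells, and at 13.9 and 11.1 in rod bipolar-like cells and 15.6 and 11.3 in the cone bipolar-like class. The photoreceptor level was 28.4-fold and 39.5-fold that of bipolar cells, whose values were close to the 10.4 and 13.6 CPM of Müller glia-like cells. Endothelial-like cells held 0 and 57.1 CPM of Cabp4. Cacna2d4 was higher in bipolar cells, at 416 and 372 CPM in rod bipolar-like cells and 278 and 289.6 in the cone bipolar-like class, against 187 and 175 in rod-like and 119.8 and 153 in cone-like cells. Cacnb2 was highest in rod-like cells, at 137 and 115 CPM.

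Of the 6 vesicle genes, Slc17a7 was lower in amacrine-like than in bipolar cells, Sv2a and Syt1 were higher, and Sv2b, Syp and Vamp2 were not called. Slc17a7, the vesicular glutamate transporter VGLUT1, was at 1076 and 1016 CPM in rod-like, 1148 and 997 in cone-like cells, 956 and 757 in the cone bipolar-like class and 510.4 and 429 in rod bipolar-like cells. Amacrine-like cells held 69.3 and 70.0 CPM of it, 10.4-fold and 8.79-fold below bipolar cells. This was near the 41.9 and 58.6 of Müller glia-like cells and below the 111 and 167 of endothelial-like cells. Sv2b, a vesicle glycoprotein, was highest in cone-like cells, at 420.2 and 453 CPM.

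Its paralogue Sv2a (chromosome 3, 96181151 to 96195521) was lowest in rods. It stood at 708 and 772 CPM in amacrine-like, 249 and 273 in cone bipolar-like, 157 and 167 in rod bipolar-like, 73.2 and 112 in cone-like cells and 13.4 and 39.1 in rod-like cells. The order of the 5 classes was the same in both libraries. Rod-like cells, with 18 and 56 UMIs of Sv2a, had counting intervals that overlapped those of Müller glia-like cells, at 18.0 and 29.3 CPM. Sv2a was also 5.45-fold and 2.87-fold higher in cone-like than in rod-like cells.

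Syt1, the calcium sensor for fast release, was at 2569 and 2954 CPM in amacrine-like, 1691 and 2030 in cone bipolar-like, 1095 and 1307 in cone-like and 597 and 740 in rod-like cells. Syp, the vesicle marker synaptophysin, was at 754 and 789 CPM in cone-like and 356 and 389.9 in rod-like cells, 2.12-fold and 2.02-fold apart. Vamp2, the vesicle SNARE, varied least across the classes among these, from 365 CPM in control rod-like cells to 679 in STZ amacrine-like cells.

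The complexins bind the assembled SNARE complex, and the members Cplx3 and Cplx4 had different class patterns. Cplx3 (chromosome 9, 57599992 to 57606281) was at 2445 and 3065 CPM in amacrine-like, 1864 and 1653 in rod bipolar-like cells, 1288 and 1250 in the cone bipolar-like class, 642 and 778 in cone-like and 91.0 and 167 in rod-like cells. Cplx4 was at 868.5 and 905 CPM in rod-like, 456 and 480 in cone-like cells, 221 and 248 in the cone bipolar-like class, 20.4 and 19.7 in rod bipolar-like and 39.6 and 16.3 in amacrine-like cells. Rods had the highest level of Cplx4 and the lowest of Cplx3, and rod bipolar-like cells were near the bottom for Cplx4 and second for Cplx3. Cplx3 was 7.06-fold and 4.66-fold higher in cone-like than in rod-like cells, and Cplx4 1.90-fold and 1.89-fold lower. Between the bipolar classes, Cplx4 was 10.8-fold and 12.6-fold lower in rod bipolar-like cells, whose level was close to the 13.3 and 27.8 CPM of Müller glia-like cells. Endothelial-like cells held 20.4 and 91.0 CPM of Cplx4.

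Stx3, the syntaxin used at ribbon synapses in place of syntaxin 1, was at 833.5 and 746 CPM in rod-like, 666 and 613 in cone-like, 591 and 582 in rod bipolar-like cells, 507.5 and 433 in the cone bipolar-like class and 188 and 135 in amacrine-like cells. Snap25, its partner on the plasma membrane, was at 1478 and 1172 CPM in rod bipolar-like and 527 and 555.5 in rod-like cells. The recycling ATPase Nsf and its adaptor Napb were higher in bipolar cells than in photoreceptors. Nsf was at 868 and 792 CPM in rod bipolar-like and 245 and 223 in rod-like cells, and Napb was at 403 and 358 in cone bipolar-like and 109.8 and 130.2 in cone-like cells. Dnajc5, the vesicle chaperone CSPα, was highest in cone-like cells at 242 and 244 CPM and ranged from 139.9 to 208 in the other classes.

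Among the 5 neuron classes, the adhesion genes Elfn1 and Egflam were highest in photoreceptors. Elfn1, which recruits mGluR6 on the bipolar dendrite, was at 64.1 and 62.2 CPM in rod-like and 76.3 and 61.3 in cone-like cells. In bipolar cells its UMIs numbered 10 and 6 in rod bipolar-like cells and 4 and 8 in the cone bipolar-like class, 41.0-fold and 34.1-fold below photoreceptors in CPM. Egflam, which encodes pikachurin, was at 112 and 96.4 CPM in rod-like, 105 and 105.5 in cone-like and 3.64 to 6.12 in the bipolar classes, and was counted once in all amacrine-like cells. Elfn2, a paralogue of Elfn1, was higher in bipolar cells: it stood at 123 and 92.5 CPM in cone bipolar-like, 29.6 and 50.2 in rod bipolar-like and 19.4 and 30.5 in cone-like cells, and rod-like cells held 1 and 11 UMIs.

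Lrit1 and Lrit2, leucine-rich repeat proteins of the photoreceptor terminal, lie side by side on chromosome 14 (37054830 to 37064946 and 37067929 to 37073743) and differed in opposite directions between rods and cones. Lrit1 was at 277 and 223 CPM in cone-like and 164 and 113 in rod-like cells, 1.69-fold and 1.97-fold higher in cones. Lrit2 was at 95.9 and 78.4 CPM in cone-like and 217 and 175 in rod-like cells, 2.26-fold and 2.24-fold lower in cones. Both were also present in bipolar cells, Lrit1 at 112 to 169.9 CPM and Lrit2 at 86.3 to 106. Dag1, which encodes dystroglycan, was at 36.4 and 33.2 CPM in cone-like and 14.9 and 17.5 in rod-like cells, below the 81.0 and 95.1 of Müller glia-like cells.

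The 250 bases before the RefSeq start are given for Lrit1, Elfn1 and Egflam, the adhesion genes that were higher in photoreceptors than in bipolar cells, 5′ to 3′ on GRCm38.p6 with any TAATCC in capitals. Only the Lrit1 window holds one, beginning 50 bases before the start.
Lrit1, chr14:37054580-37054829, plus strand: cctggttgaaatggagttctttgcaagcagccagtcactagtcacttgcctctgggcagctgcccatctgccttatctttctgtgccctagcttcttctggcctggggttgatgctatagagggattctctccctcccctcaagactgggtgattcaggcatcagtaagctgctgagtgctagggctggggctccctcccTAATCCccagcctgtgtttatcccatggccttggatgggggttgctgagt
Elfn1, chr5:139907616-139907865, plus strand: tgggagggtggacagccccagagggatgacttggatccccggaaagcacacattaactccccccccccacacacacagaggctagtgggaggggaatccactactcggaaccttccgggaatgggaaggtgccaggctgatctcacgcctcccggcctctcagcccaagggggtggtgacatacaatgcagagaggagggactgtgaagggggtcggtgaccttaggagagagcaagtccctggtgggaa
Egflam, chr15:7398396-7398645, minus strand: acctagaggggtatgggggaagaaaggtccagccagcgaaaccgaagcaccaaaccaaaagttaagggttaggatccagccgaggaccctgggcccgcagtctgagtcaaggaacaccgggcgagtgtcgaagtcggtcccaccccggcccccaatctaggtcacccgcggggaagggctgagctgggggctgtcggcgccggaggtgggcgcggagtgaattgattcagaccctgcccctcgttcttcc

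The cone bipolar-like class is a mixture of subtypes, and several release genes varied more among its 5 clusters than between the libraries. Cplx4 was at 491 and 502 CPM in cluster 4 and 656 and 417 in cluster 23, but at 30.7 and 57.9 in cluster 5 and 22.5 and 23.7 in cluster 7. Nsf was at 1306 and 1215 CPM in cluster 7 and 307 and 296 in cluster 4, and Napb at 668 and 557 CPM in cluster 7 against 242 and 273 in cluster 11. Cluster 7 was led by Cck and held the bipolar factor Vsx1 among its top 10 genes, cluster 4 by Htr3a and cluster 11 by Erbb4. Rims1 was at 75.0 and 87.9 CPM in cluster 11 and 17.7 and 22.8 in cluster 7. The clusters made up different shares of the class in each library: cluster 7 held 319 of 987 control and 291 of 1276 STZ cells, and cluster 23 held 60 and 162. The clusters were made without these genes, so the values describe the clusters and are no test.

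**Figure D3:**
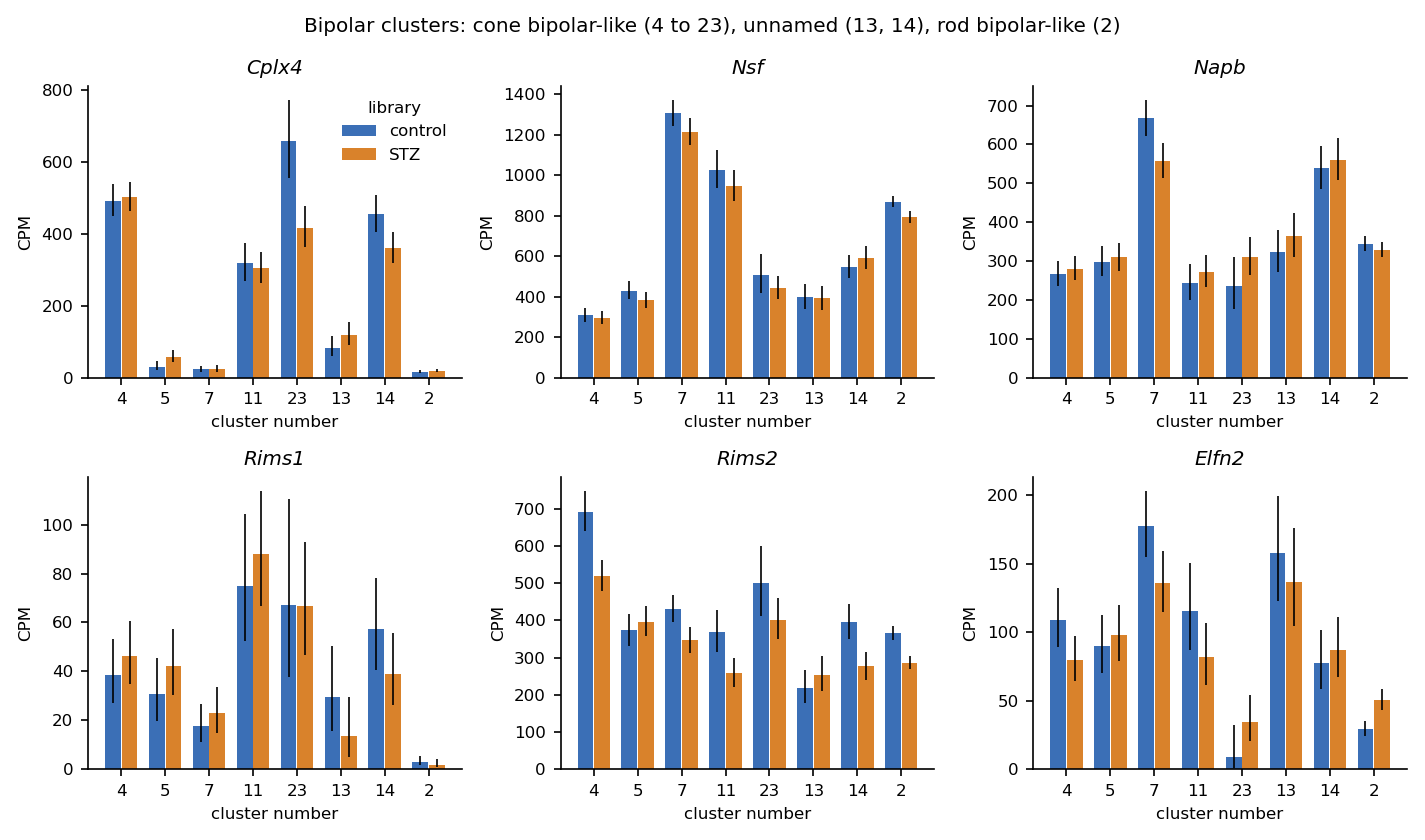
CPM of 6 genes (vertical axes) in the clusters of bipolar cells (horizontal axes) in the control and STZ libraries, with counting intervals at 95%. Cplx4 is high in clusters 4, 11, 14 and 23 and low in clusters 5, 7 and 2 in both libraries, and Nsf is highest in cluster 7.

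Rod-like cells fell into cluster 1, with 266 control and 585 STZ cells, and cluster 6, with 364 and 407. Of 28 measured genes, 7 were at least 1.5-fold higher in cluster 6 in both libraries and 0 were lower. Among all measured genes 31.5% were higher and 4.48% lower, so the share is near the background. The 7 were Ctbp2, Pclo, Rims2, Unc13b, Cacna1f, Cacnb2 and Napb. Cacnb2 was at 213 and 253 CPM in cluster 6 and 57.9 and 37.3 in cluster 1, and Rims2 at 502 and 501 against 251 and 173. Vesicle genes were closer: Slc17a7 was at 1125 and 1047 CPM in cluster 6 and 1025 and 998 in cluster 1. The clusters make up different shares of the rods in each library. Rod differences between the libraries that are described below for genes of the 31 are therefore given within each cluster too. For genes outside the 31 they are given for the whole class only.

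When STZ was set against control, few of the release genes were 1.5-fold apart in any class. Ratios are STZ over control, on the log2 scale, and a gene counts as higher or lower from 1.5-fold. In rod-like cells the median of 28 measured genes was -0.02, beside -0.04 over all measured genes, and 2 were higher and 0 lower, beside 7.63% and 9.34% of all measured genes. In cone-like cells the median of 29 was 0.05 beside 0.02, with 2 higher and 1 lower, beside 5.06% and 3.06%. In rod bipolar-like cells the median of 28 was -0.15 beside -0.02, with 1 higher and 0 lower, beside 4.78% and 5.90%, and 22 of the 28 lay below 0 as did 52.0% of all measured genes. In cone bipolar-like cells the median of 29 was -0.14 beside -0.03, with 0 higher and 2 lower, beside 4.39% and 4.79%, and 20 of the 29 lay below 0 as did 53.5% of all. In amacrine-like cells the median of 25 was 0.22 beside 0.01, with 3 higher and 2 lower, beside 15.8% and 13.4%. The shares of called genes were near or below these backgrounds, and no test was possible. The medians moved with the processing. With the stricter filter on cells (500 genes or more, 10% mitochondrial counts or less) that of rod bipolar-like cells was -0.0028. With the level of endothelial-like cells taken off, the medians were -0.28 in rods, -0.14 in cones, where the sign turned, and 0.055 in amacrine-like cells.

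**Figure D4:**
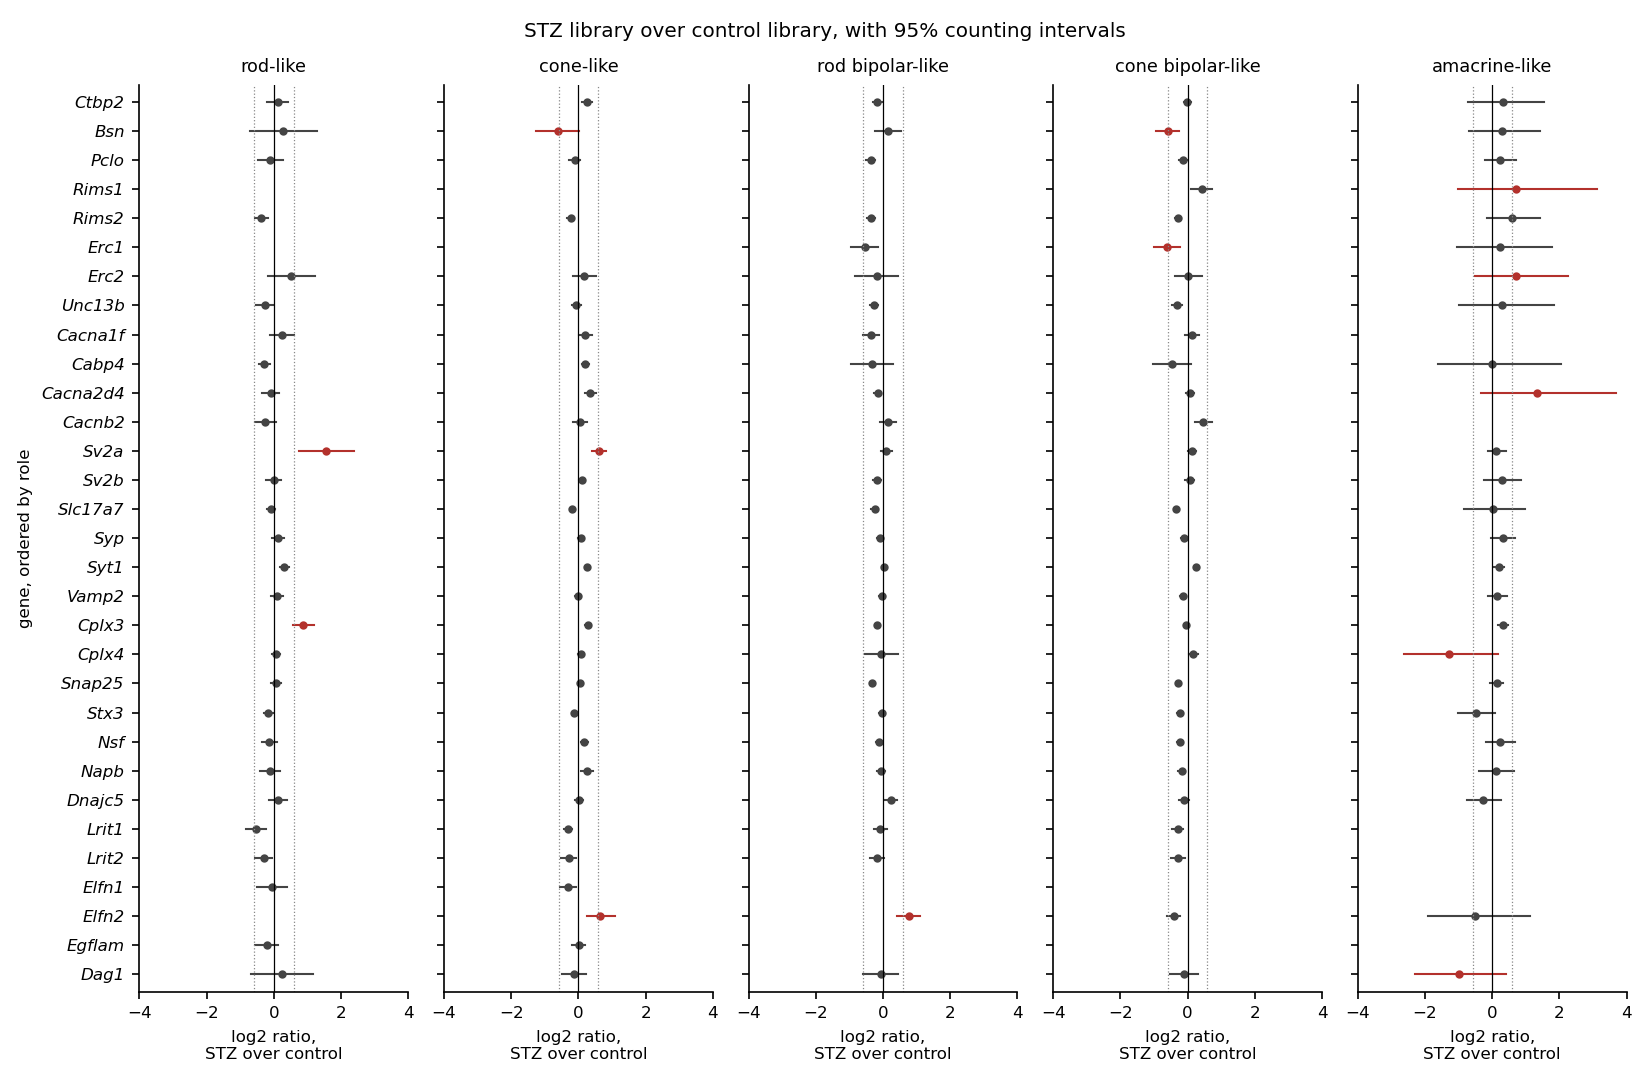
Log2 ratio of STZ over control (horizontal axes) for each gene (vertical axis) in 5 cell classes, with counting intervals at 95%, dotted lines at 1.5-fold and called genes in red. Most points lie within the dotted lines, Sv2a and Cplx3 stand out in rod-like cells, and the intervals are widest in amacrine-like cells.

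In rods as a whole the measured scaffold and channel genes stayed within 1.5-fold. Within cluster 1 this did not hold for every gene: Erc2 was at 7.61 and 29.6 CPM on 5 and 27 UMIs, Cacna1f at 56.4 and 88.8 CPM and Cacnb2 at 57.9 and 37.3. In cluster 6 these were at 36.5 and 36.6, 124 and 143, and 213 and 253 CPM. Bsn passed 1.5-fold in cluster 6, at 14.6 and 27.0 CPM on 10 and 14 UMIs, and was at 10.7 and 8.77 CPM in cluster 1. Rims2 was at 379.5 and 292 CPM, a ratio of -0.38, but this was 251 and 173 CPM in cluster 1 and 502 and 501 in cluster 6. Lrit1 had the lowest ratio of the measured genes, 1.45-fold lower in STZ (1.18 to 1.79), at 164 and 113 CPM. It was lower within each cluster, at 151 and 108.5 CPM in cluster 1 and 177 and 121.5 in cluster 6. Lrit1 also stood lower in cones, by 1.24-fold, and in the cone bipolar-like class, by 1.23-fold, with intervals that leave out 1.

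Cplx3 and Sv2a, both lowest in rods among the 5 classes, were the genes called higher in rod-like cells of the STZ library. Cplx3 was 1.84-fold higher (1.47 to 2.30), with 122 and 239 UMIs. It stood at 97.5 and 153 CPM in cluster 1 and 84.7 and 191 in cluster 6, and so was higher within each. Endothelial-like cells, which have no ribbon synapse, held 32.0 and 255 CPM of it, pigment epithelium-like cells 83.1 and 286 and Müller glia-like cells 27.3 and 40.4. Cells with a Cplx3 UMI made up 14.8% and 20.2% of rod-like, 11.1% and 31.9% of endothelial-like and 13.2% and 17.6% of Müller glia-like cells, at median depths of 1704 and 1179, 3175 and 958, and 5822 and 5533 UMIs. Thinned to 500 UMIs per cell, which left out 0 control and 2 STZ rods, the shares were 5.71% and 8.48% in rods, 1.01% and 14.96% in endothelial-like cells and 1.66% and 2.55% in Müller glia-like cells. The control rod share was above both of these references, and the STZ rod share was above the Müller glia-like and below the endothelial-like share. The STZ endothelial-like cells are the shallow ones that held markers of several other cell types. Summed markers of other cells in rod-like cells were 978 and 1333 CPM for cones and 587.5 and 808.5 for rod bipolar cells. They were 242 and 271 CPM for cone bipolar, 29.1 and 47.5 for amacrine cells and 754.5 and 993 for Müller glia. Astrocyte markers went the other way, at 228 and 206 CPM, and rod markers themselves summed to 40480 and 34090. The part of free RNA in the rod difference was not tested.

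Sv2a was 2.92-fold higher in STZ rods (1.69 to 5.27). It stood at 16.8 and 35.1 CPM in cluster 1 and 10.2 and 46.3 in cluster 6. Endothelial-like cells held 11.6 and 32.4 CPM and Müller glia-like cells 18.0 and 29.3. Thinned to 500 UMIs, 0.794% and 1.62% of rods held a Sv2a UMI against 2.02% and 2.74% of endothelial-like and 1.03% and 1.70% of Müller glia-like cells. The rod shares lay below these in both libraries, on 5 and 16 rods with a UMI, and their intervals overlapped those of Müller glia-like cells, so they do not separate rods from background. The endothelial-like control share rests on 2 of 99 cells. By CPM, STZ rods were above both references. The part of free RNA was not tested. The plot of both genes over all classes sets the rod values beside those of cells without synapses.

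**Figure D5:**
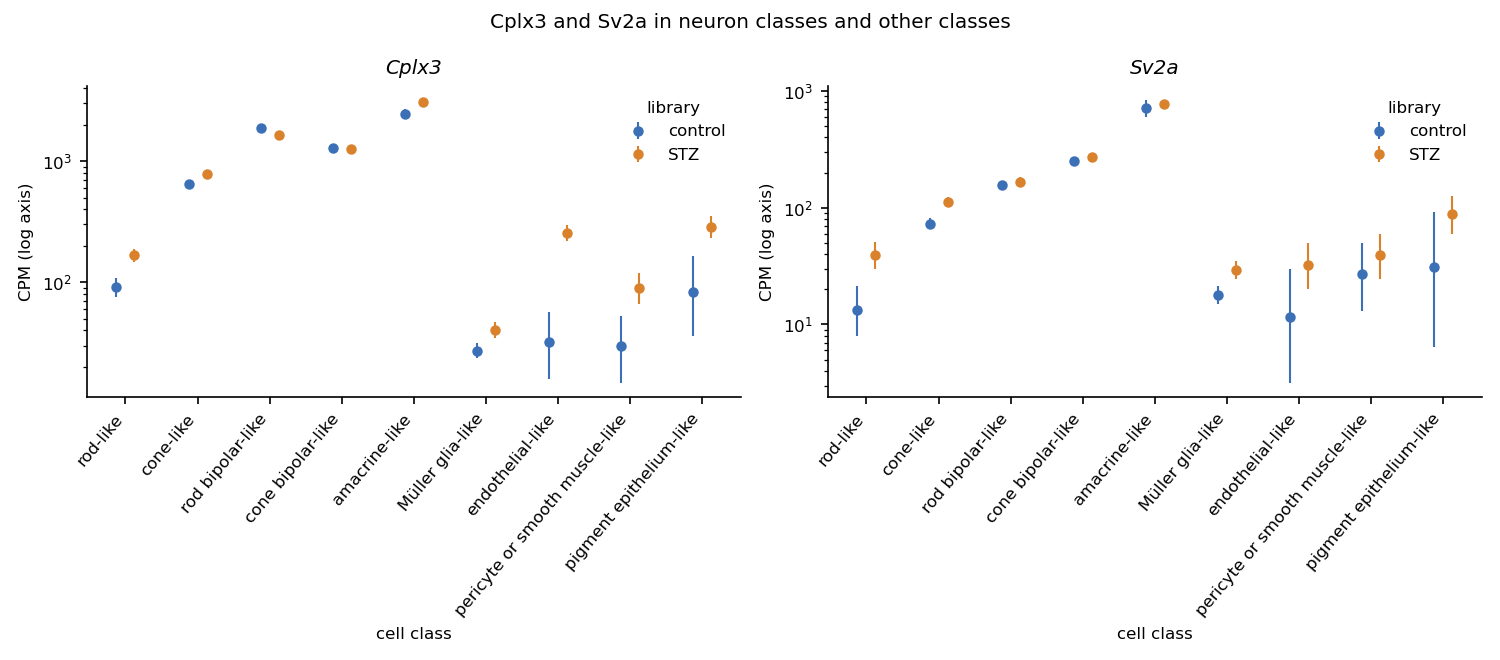
CPM (vertical axes, log scale) of Cplx3 and Sv2a in neuron and other classes (horizontal axes) of the control and STZ libraries, with counting intervals at 95%. Rod-like cells lie closer to the non-neuronal classes than to the other neurons for both genes, and Cplx3 in endothelial-like cells is at 32.0 CPM in control and 255 in STZ.

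In cone-like cells 3 genes passed 1.5-fold. Sv2a was 1.54-fold higher (1.33 to 1.78), at 73.2 and 112 CPM, well above Müller glia-like cells. With every cell thinned to 500 UMIs its log2 ratio was -0.16 instead of 0.62, and it was not called there. Elfn2 was 1.58-fold higher (1.18 to 2.11), on 81 and 125 UMIs, and Bsn 1.52-fold lower, on 56 and 36 UMIs with an interval from 0.984 to 2.38 that includes 1. With the stricter filter on cells the log2 ratio of Elfn2 in cones was 0.21 instead of 0.66, and with thinning to 500 UMIs it was 2.46. Thinning keeps 500 UMIs of a cone, where the medians were 5539 and 4758. The thinned ratios of Sv2a and Elfn2 therefore rest on far fewer UMIs than the main ones and cannot settle either call. The other complexins and SNARE genes stayed close: Cplx3 was 1.21-fold higher (1.15 to 1.28), Cplx4 at 456 and 480 CPM, Snap25 at 729 and 757 and Stx3 at 666 and 613. Slc17a7 was 1.15-fold lower (1.11 to 1.20).

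In rod bipolar-like cells Elfn2 was the gene called, 1.69-fold higher (1.33 to 2.16) at 29.6 and 50.2 CPM, while in the cone bipolar-like class it was 1.33-fold lower (1.16 to 1.52). Within that class it was lower in clusters 4, 7 and 11, at 89.6 and 98.0 CPM in cluster 5 and on 2 and 18 UMIs in cluster 23, and cluster 7, with the highest level, was a smaller share of the STZ class. Thinned to 500 UMIs the rod bipolar-like log2 ratio was 0.33 instead of 0.76. Whether the ratios differ between the 2 classes was not tested. Scaffold genes were lower without reaching 1.5-fold: Pclo was 1.29-fold lower (1.18 to 1.41), Rims2 1.28-fold lower (1.18 to 1.39), Unc13b 1.21-fold lower (1.12 to 1.30) and Erc1 1.46-fold lower (1.10 to 1.94). Snap25, at 1478 and 1172 CPM, was 1.26-fold lower (1.21 to 1.31), and Cplx3 was 1.13-fold lower (1.09 to 1.17). Syt1 and Vamp2 were nearly level, at 1245 and 1259 CPM and at 571 and 564.

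In cone bipolar-like cells Bsn was 1.51-fold lower (1.20 to 1.90), at 46.9 and 31.1 CPM, and Erc1 1.53-fold lower (1.16 to 2.01), at 34.2 and 22.4 CPM. Bsn was lower in each of the 5 clusters, for example at 48.9 and 32.1 CPM in cluster 4, but its call held in 6 of 15 other settings. Outside the class, Bsn was at 47.4 and 26.9 CPM in the unnamed cluster 13 but level in cluster 14, at 51.3 and 50.8. Rod bipolar-like cells held 27.9 and 31.1 CPM of it. Erc1 was lower in clusters 4, 5, 7 and 11 and level in cluster 23, at 35.7 and 36.3 CPM. Müller glia-like cells held 24.9 and 21.5 CPM of Erc1, which is close to the STZ value. In endothelial-like cells Erc1 was at 66.9 and 21.6 CPM, so it was lower in STZ there too. Rims1 and Cacnb2 stood higher below the threshold, 1.34-fold (1.07 to 1.67) and 1.39-fold (1.17 to 1.64). Cluster 7, a smaller share of the STZ class, had the lowest level of both. Within clusters Cacnb2 was at 17.7 and 38.3 CPM in cluster 7 and 120.5 and 114.7 in cluster 23, and Rims1 was level in cluster 23. Slc17a7 was 1.26-fold lower (1.21 to 1.33) and Syt1 1.20-fold higher (1.16 to 1.24).

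The amacrine-like comparison rests on 55 control cells. Rims1 (3 and 21 UMIs), Erc2 (6 and 42) and Cacna2d4 (3 and 32) were called higher and Cplx4 (8 and 14) and Dag1 (8 and 17) lower, and the interval of each ratio includes 1. The class was made of cluster 15, with 17 and 50 cells, and cluster 19, with 38 and 167. Rims1 had 0 and 0 UMIs in cluster 15 and was at 23.2 and 32.9 CPM in cluster 19. Dag1 was level in cluster 15, at 27.5 and 27.4 CPM, and at 46.4 and 17.2 in cluster 19. Erc2 and Cacna2d4 were higher and Cplx4 lower within each cluster, on few UMIs. Rims1 kept its call in 9 of 13 other settings, with a log2 ratio of 0.055 without a filter on cells. Erc2 kept it in 11 of 14, with 0.38 where doublets were kept, and Cplx4 in 9 of 11, with -0.12 where cells were chosen by markers alone. The abundant genes were measured better: Cplx3 was 1.25-fold higher (1.14 to 1.38) and Syt1 1.15-fold higher (1.05 to 1.27). Sv2a was at 708 and 772 CPM, with an interval of 0.909 to 1.32 for the ratio. Summed markers of other cells, a measure of their RNA, went both ways in the amacrine-like class. They were 1119 and 841 CPM for rods, 188 and 162 for cone bipolar cells, and 366 and 566 for cones. For rod bipolar cells they were 426 and 471 CPM, and for Müller glia 1064 and 1161.

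Genes of the same pathway outside the 31 were taken from lists. Their values in rods are for the whole class and were not split by cluster. Their counts stand beside the shares of all measured genes given above: 7.63% higher and 9.34% lower in rods, 5.06% and 3.06% in cones, 4.78% and 5.90% in rod bipolar-like cells, 4.39% and 4.79% in the cone bipolar-like class and 15.8% and 13.4% in amacrine-like cells. Of 35 genes of vesicle docking and fusion, 16 were measured in rods, with 4 higher and 1 lower, and 18 in cones, with 1 and 1. Rod bipolar-like cells had 19 measured with 0 and 3, the cone bipolar-like class 21 with 1 and 1, and amacrine-like cells 24 with 2 and 1. In rods the 4 were Syt11, Snap47, Unc13c and Ppfia3 and the lower one Vamp3, named after their values were seen, all under 40 CPM. Syt11 was on 7 and 30 UMIs, and the intervals of Snap47, Unc13c and Ppfia3 include 1. Unc13a, a second priming factor, was 1.76-fold lower in rod bipolar-like cells (1.39 to 2.24) and 1.70-fold lower in cone bipolar-like cells (1.37 to 2.11), at 54.7 and 31.1 and at 56.1 and 33.1 CPM. Rph3a, a Rab3 effector on vesicles, was 1.70-fold lower in rod bipolar-like cells (1.42 to 2.03). Cplx2, a complexin of conventional synapses, was 2.15-fold higher in cone bipolar-like cells (1.67 to 2.79), at 23.5 and 50.5 CPM. In cones Syt11 was higher and Unc13a lower, the latter 1.84-fold (1.25 to 2.75), so Unc13a was called lower in cones and both bipolar classes. The liprin gene Ppfia2 stood lower without reaching 1.5-fold, by 1.46-fold in rods, 1.45-fold in cones and 1.28-fold in rod bipolar-like cells.

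The vesicle endocytosis list of 23 genes had 22 measured genes in rod-like and cone-like cells and 23 in both bipolar classes, with 0 higher in each and 1, 1, 2 and 0 lower in that order. Amacrine-like cells had 22 measured, with 0 higher and 2 lower. Hspa8, the chaperone that uncoats clathrin vesicles and also a general heat shock protein, was 1.84-fold lower in rods (1.68 to 2.02), 1.61-fold lower in cones (1.55 to 1.68) and 1.61-fold lower in rod bipolar-like cells (1.54 to 1.68). In the cone bipolar-like class it was 1.30-fold lower (1.25 to 1.36). Itsn1, an endocytic scaffold, was 1.503-fold lower in rod bipolar-like cells (1.27 to 1.78). The list of vesicle membrane and filling genes, 23 in all, had 12 to 16 measured per class, with Synpr higher in rods, Sypl in cones, Sypl and Atp6v1h in amacrine-like cells, and Syngr3 lower in rod bipolar-like cells. Of its proton pump subunits, Atp6v1e1 was 1.28-fold higher in rods (1.05 to 1.57) and 1.18-fold lower in rod bipolar-like cells (1.08 to 1.29).

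Among 22 other calcium channel subunits and sensors, 8 were measured in rods, with 0 higher and 1 lower, and 8 in cones, with 2 and 0. Rod bipolar-like cells had 11 measured with 1 and 0, the cone bipolar-like class 15 with 0 and 1, and amacrine-like cells 14 with 0 and 2. The pair in cones was Cacna2d2 and Cacna2d3, accessory channel subunits, 2.04-fold (1.58 to 2.66) and 2.10-fold (1.39 to 3.22) higher at no more than 44.0 CPM. Rcvrn, the calcium sensor recoverin, was 1.66-fold lower in rods (1.61 to 1.72), at 6644 and 4003 CPM, and 1.74-fold lower in cone bipolar-like cells (1.54 to 1.97). Of 28 genes of the dystroglycan complex and adhesion partners, 27 were in the table. In rods 16 were measured with 0 higher and 0 lower, and in cones 14 with 1 and 0. Rod bipolar-like cells had 16 with 2 and 0, the cone bipolar-like class 21 with 0 and 2, and amacrine-like cells 16 with 6 and 2. The neurexin Nrxn2 was higher in rod bipolar-like cells, 1.91-fold (1.44 to 2.55), and in amacrine-like cells, 1.89-fold (1.30 to 2.84). Dmd, the photoreceptor partner of dystroglycan, was at 539.8 and 395 CPM in rods, 1.37-fold lower (1.22 to 1.53), and at 616 and 558.5 in cones. On the bipolar side of the same synapse, Nyx was 1.52-fold lower in the cone bipolar-like class (1.29 to 1.79). Grm6, the glutamate receptor that ELFN1 binds, was 1.48-fold lower there (1.38 to 1.59) and level in rod bipolar-like cells at 526.5 and 527 CPM. In the unnamed clusters 13 and 14, which lie outside the class, Grm6 was at 621 and 727 and at 516 and 528 CPM. The clusters of the class had different shares in each library, and whether Nyx and Grm6 were lower within them was not tested. Of 11 conventional synapse genes, 1 to 7 were measured per class, and Cplx2 in the cone bipolar-like class and Cplx1 in amacrine-like cells, on 7 and 57 UMIs, were higher.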

How the data were processed

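Raw UMI counts were deposited as whole numbers for 17087 genes and 19562 cells. The submitters' processing notes name Cell Ranger 3.0.1, Seurat 3.0 and mm10; the settings are not given in the sources used here. Cell names carry the library, and 0 columns were without a sample. No cell exceeds 2999 genes, so a filter precedes the deposit.

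Cells needed 200 genes or more and 20% mitochondrial counts or less. Scrublet in scanpy 1.11.5 removed 31 control doublets (0.582%) by its threshold; in STZ it marked 0 and the top 628 scores (7.09%) were removed, so the rules differ. The 31 genes and all list genes were left out of the 2000 variable genes; 30 components, 15 neighbours and Leiden resolution 1.0 gave 25 clusters. A cluster was named by at least 3 markers in at least 10% of its cells, 1.5-fold over the rest and at 25% or more of their highest cluster. It stayed unnamed if its top 10 genes held more markers of another class, or if it had low UMIs and no marker of its class among them. Cluster 10, with 6 leading Müller glia markers, was left unnamed by the rule on other classes.

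Counts were summed per class and library and scaled to CPM. Intervals are exact Poisson, Clopper-Pearson and conditional binomial. A count of 0 was set to 3. No test was run, with 1 library per group. Computed ratios were tested on simulated data. The members and lists were chosen with earlier results of these data known. A gene is named in a class where it was called or highest, and up to 4 genes per list and class with the largest ratios at 50 CPM and 50 UMIs; others that are named were chosen after their values were seen. Promoters come from RefSeq and positions from GENCODE M21. Gene symbols of 3 listed genes were not matched. In all, 13 planned and 3 added alternatives were run, the added ones chosen after seeing the data.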

Additional observations from a re-analysis of the deposited data

How the results depend on the processing

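No paired analysis was possible because each group has 1 library. Outside the settings that take off free RNA, the median log2 ratio stayed between -0.06 and 0.02 in rods, 0.03 and 0.14 in cones, -0.16 and -0.0028 in rod bipolar-like cells, -0.26 and -0.11 in the cone bipolar-like class and 0.16 and 0.29 in amacrine-like cells over 13 settings; the value of -0.0028 came with the stricter filter (500 genes or more, 10% mitochondrial counts or less). With the CPM of endothelial-like cells taken off each gene, the medians were -0.28, -0.14, -0.26, -0.35 and 0.055 in the same order, and with that of Müller glia-like cells, added after seeing the data, -0.10, 0.03, -0.17, -0.19 and 0.21. The endothelial-like STZ cells are shallow, and the cause of the shift was not tested. Cplx3 in rods has no value with the endothelial-like level taken off, because the STZ rod level is below it. Sv2a in rods has none with the Müller glia-like level taken off, because the control rod level, 13.4 CPM, is below the 18.0 CPM of those cells. Both were called in all 14 settings that gave a value, from 0.60 to 1.11 for Cplx3 and 0.74 to 2.28 for Sv2a. Sv2a in cone-like cells turned to -0.16 with cells thinned to 500 UMIs and was called in 11 of 15 settings. The same thinning, which leaves far fewer UMIs, gave 2.46 for Elfn2 in cone-like cells. Elfn2 was called in 12 of 15 in cone-like and 13 of 15 in rod bipolar-like cells, Bsn in 10 of 13 in cone-like and 6 of 15 in cone bipolar-like cells, and Erc1 in 11 of 14 in cone bipolar-like cells. At 2-fold, 1 gene was higher in rods, 1 higher and 1 lower in amacrine-like cells, and 0 elsewhere. Between classes, the number of genes apart lay between 10 and 12, 7 and 7, 13 and 18, and 16 and 19 over 10 settings, in the order given for the 4 comparisons. Depth limits most the amacrine-like cells, with 202040 control UMIs, and Rims1, Erc1 and Elfn2 in rods, which were not measured.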

Other observations

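Some members stood out in cells that belong to no comparison. Egflam was at 121.5 and 110.3 CPM in pericyte or smooth muscle-like cells, on 45 and 59 UMIs, which is near the rod-like and cone-like values, and Dag1 was at 310.4 and 286 CPM there, above the 36.4 and 33.2 CPM of cone-like cells. Sv2b was at 519 and 408 CPM in pigment epithelium-like cells, on 50 and 134 UMIs, while Sv2a, Syp and Cplx3 in the same control cells rested on 3, 4 and 8 UMIs. Rims1 stood at 28.1 and 27.2 CPM in Müller glia-like cells on 194 and 128 UMIs, in contrast to 1 and 1 UMIs in cone-like cells.

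The unnamed cluster 12, mostly of the STZ library, held 8249 UMIs of the 31 genes in 1620 STZ cells, or 6664 CPM, with Cplx3 at 946 CPM, Slc17a7 at 481.5, Cplx4 at 258, Sv2a at 128.5 and Cabp4 at 144. Clusters 13 and 14 held 11620 and 11490 CPM of the 31 genes in control and 11540 and 11340 in STZ. Cplx4 was at 83.5 and 119 CPM in cluster 13 and 453 and 360 in cluster 14, and Elfn2 at 158 and 137 against 77.8 and 87.3.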
